A study of Mus musculus with 12 samples.

Results

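The response of wild-type mouse embryonic stem cells to 6 h of Activin A was measured by poly(A) RNA sequencing in 4 of the 12 libraries of the series. These were the libraries of WT lines 18 and 26 (129SvEv strain) in the inhibitor SB431542 (SB) and at 6 h of Activin, and each 6 h library was set against the SB library of its own line. Cells kept in LIF with both inhibitors of the 2i medium, which target GSK3 and MEK, were moved for 24 h to N2B27 without them on fibronectin, and every dish then spent 4 h in N2B27 with 10 µM SB431542, which blocks the type I receptor kinases of Activin, Nodal and TGFβ. The SB dish was harvested at that point, and the 6 h dish was washed and then kept in N2B27 containing Activin A at 10 ng/ml. The other 8 libraries were the 3 h dishes of the WT lines and all 3 treatments of lines 25 and 39, which lack the ubiquitin ligase Arkadia (null lines). Each library was 1 dish of 1 line, so a group had 2 libraries. P-values compare group means without pairing the lines, except where the fit with the cell line as a block is named. The unpaired fit pools the spread within groups over all 12 libraries, and in this spread line and dish cannot be told apart. No dish received fresh N2B27 without Activin for 6 h, so ligand, removal of the inhibitor, change of medium and hours in culture cannot be told apart in any difference from SB. Values are FPKM (fragments per kilobase of transcript, scaled to the mapped reads of the library) of 13508 named autosomal genes, and changes are differences in log2(FPKM + 1), which understate the changes of weakly expressed genes.

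Activin and Nodal bind type II and type I receptor kinases, which phosphorylate SMAD2 and SMAD3. These join SMAD4, enter the nucleus and act on target genes with partners such as FOXH1. The pathway induces its own ligand Nodal and the antagonists Lefty1 and Lefty2, and it is limited inside the cell by the inhibitory SMAD7 and by the corepressors Ski and SnoN (Skil). In the epiblast it maintains pluripotency and, at higher levels, starts formation of the primitive streak, mesoderm and endoderm.

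The 250 bases upstream of the start site are printed for 6 genes whose changes are described below, to show where letters linked to SMAD proteins and their partners occur in promoters of genes that moved in opposite directions. They were chosen after their values were seen, from genes whose start site lay within 1000 bases of the locus in the expression table. Sequences and positions are those of RefSeq on GRCm38.p6, read 5′ to 3′ on the gene's strand. Capitals mark matches on either strand to CAGAC (the SMAD binding element), GGCGCC (a GC-rich SMAD motif), TGTNNATT (a FOXH1-type motif) or TGANTCA (the AP-1 site).
Tdgf1, rose (chr9:110946159-110946408, minus strand): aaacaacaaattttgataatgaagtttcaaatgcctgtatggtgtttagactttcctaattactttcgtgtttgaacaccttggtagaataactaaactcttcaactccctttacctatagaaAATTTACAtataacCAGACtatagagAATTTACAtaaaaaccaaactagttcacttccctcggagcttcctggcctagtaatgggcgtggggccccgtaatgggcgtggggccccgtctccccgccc
Nanog, rose (chr6:122707239-122707488, plus strand): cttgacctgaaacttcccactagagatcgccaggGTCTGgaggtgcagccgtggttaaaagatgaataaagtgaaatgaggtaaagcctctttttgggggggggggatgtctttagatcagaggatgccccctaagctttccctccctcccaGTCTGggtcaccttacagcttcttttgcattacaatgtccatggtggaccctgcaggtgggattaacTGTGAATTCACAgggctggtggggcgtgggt
Nodal, rose (chr10:61417722-61417971, plus strand): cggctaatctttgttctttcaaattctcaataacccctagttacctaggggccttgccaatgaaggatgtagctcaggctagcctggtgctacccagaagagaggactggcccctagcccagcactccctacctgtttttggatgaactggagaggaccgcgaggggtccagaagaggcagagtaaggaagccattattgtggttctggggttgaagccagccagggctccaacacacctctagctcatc
Irf1, rose (chr11:53769764-53770013, plus strand): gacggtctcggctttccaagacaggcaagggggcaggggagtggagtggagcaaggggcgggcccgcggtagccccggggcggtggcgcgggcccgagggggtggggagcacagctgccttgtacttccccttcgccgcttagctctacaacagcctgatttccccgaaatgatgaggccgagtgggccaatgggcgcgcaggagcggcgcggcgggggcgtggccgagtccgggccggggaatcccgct
Slc2a1, fell (chr4:119108495-119108744, plus strand): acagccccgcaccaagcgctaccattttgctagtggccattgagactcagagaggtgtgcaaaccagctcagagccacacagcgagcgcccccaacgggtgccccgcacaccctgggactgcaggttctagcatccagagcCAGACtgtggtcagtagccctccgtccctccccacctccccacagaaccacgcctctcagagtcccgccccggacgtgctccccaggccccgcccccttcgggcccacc
Klf2, fell (chr8:72318812-72319061, plus strand): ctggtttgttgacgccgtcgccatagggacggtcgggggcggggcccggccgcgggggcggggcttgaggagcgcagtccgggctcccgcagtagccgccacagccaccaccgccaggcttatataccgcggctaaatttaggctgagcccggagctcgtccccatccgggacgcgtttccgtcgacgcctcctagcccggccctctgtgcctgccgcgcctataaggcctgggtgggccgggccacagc

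Tdgf1 had 3 matches in this window, Nanog 4, Slc2a1 1, and Nodal, Irf1 and Klf2 had 0. The 4 matches of Nanog were 2 of CAGAC and 2 of the FOXH1-type letters, which overlapped each other on opposite strands. CAGAC stood in 42.3% of all 27025 RefSeq promoter windows of this length, in 40.7% of the 9102 of genes tested, in 42.6% of the 857 of genes that rose and in 34.6% of the 599 of genes that fell. GGCGCC stood in 17.6% of windows of genes tested, 14.7% of those that rose and 17.7% of those that fell. The FOXH1-type letters stood in 6.30%, 6.53% and 8.35% of these windows and the AP-1 letters in 3.92%, 5.37% and 3.34%. Of the 121 windows of genes that rose more than 2-fold, 47.1% held CAGAC, 6.61% GGCGCC, 10.7% the FOXH1-type letters and 9.09% the AP-1 letters. Of the 33 windows of genes that fell more than 2-fold, these shares were 33.3%, 18.2%, 9.09% and 3.03%. A match describes the letters of the window only.

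Summed FPKM was 578104 and 584627 in SB and 677258 and 671164 at 6 h in lines 18 and 26, while the median locus stayed between 4.17 and 4.25 FPKM. Read totals are unknown, but the steps between low FPKM values gave the 4 libraries 1.33 to 1.81 times the depth of the shallowest library of the series. Rnf111, which encodes Arkadia, stood at 4.27 and 3.89 FPKM in SB and 3.42 and 3.19 at 6 h in the WT lines. It was at 0.539 to 0.855 FPKM in the SB and 6 h libraries of the null lines. All 8 stem cell and epiblast markers were detected in all 4 WT libraries, with Pou5f1 at 567 to 915 FPKM. Summed marker levels of other cell types were 72.7 to 90.7 FPKM over 9 fibroblast markers, most of it from the smooth muscle actin gene Acta2, and 14.2 to 19.2 over 7 trophoblast markers. They were 10.0 to 13.2 over 7 endoderm markers, of which 4 were expressed enough to be tested, and 87.7 to 103 over 5 germline markers. Of the 25 tested markers of these other cell types the fibroblast marker Thy1 fell and Eomes rose. No marker in these sums, tested or not, was at 0 in all 4 libraries. In RNA from whole dishes, fewer cells of a type and less RNA per cell cannot be told apart.

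At 6 h the largest rises included genes of the Nodal loop, and genes of the primitive streak and of interferon-type responses, some of them with roles in antigen presentation, rose with them. Genes of naive pluripotency, glucose use and DNA methylation were among those that fell. Of 12823 genes tested, 2039 (15.9%) were called, that is, had an adjusted p under 0.05 in limma. There were 1230 that rose (9.59%) and 809 that fell (6.31%). The median change was 0.53 among risers and -0.42 among genes that fell, against 0.02 over all genes tested. Large changes were mostly rises, with 203 called genes up and 53 down by more than 1 log2 unit, 29 and 2 by more than 2, and 10 and 0 by more than 3.

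In 11 genes FPKM went from under 1 in both SB libraries to at least 5 in both 6 h libraries, and 0 genes did the reverse. Among these 11, Lefty1, Lefty2, Smad7, Psmb8, Gal and Ucma are described below, and Gm37913 and Gm44514 are predicted genes. Has2 and Ppp4r4, also among them, were named after their values were seen. Has2, a hyaluronan synthase gene, had 0.777 and 0.680 FPKM in SB and 5.61 and 5.33 FPKM at 6 h (log2 change 1.90, SE 0.102, limma adjusted p = 1.09e-05). Ppp4r4, which encodes a phosphatase regulator, had 0.410 and 0.299 FPKM in SB and 6.46 and 5.68 FPKM at 6 h (log2 change 2.38, SE 0.102, limma adjusted p = 3.36e-06). Both were close to off in SB and stayed called without either WT line.

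The change had the same sign in both lines for 78.9% of all genes tested. It had so for all 2039 called genes, which the call itself favours, since it needs a change that is large against the spread within groups. Across the 12823 genes the changes in line 18 and line 26 had a Pearson correlation of 0.645 and a Spearman correlation of 0.684, and genes are not independent replicates. Pearson's r was 0.709 over the 7220 genes with a mean of at least 5 FPKM. In both lines 170 genes were up and 39 down by more than 1 log2 unit, and 8 changed by more than that in opposite directions. The share called grew with expression, from 7.77% of genes whose higher group mean was under 2 FPKM to 21.6% of those at 50 FPKM or more.

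The count of calls rested on the fit and on both lines. With a single WT line left, which was then assumed to vary like the other groups, 117 genes were called without line 18 and 89 without line 26. Both of these fits called the same 79 genes of the 2039 (70 up, 9 down). Without null line 25 or 39 there were 3886 and 3897 calls, and with the cell line as a block 4342 (33.9%; 2770 up, 1572 down). Scaling every library to the same summed FPKM moved the median change of all genes to -0.17 and gave 577 up and 1193 down. Quantile normalization gave 1160 up and 1328 down. The gene groups below are described by their counts of calls and their median change, and some genes belong to more than 1 group. Over all genes tested the fit with the cell line as a block called 21.6% up and 12.3% down, and its counts in a group are to be read against these shares. Sizes given after "by" are on the log2 scale.

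**Figure D1:**
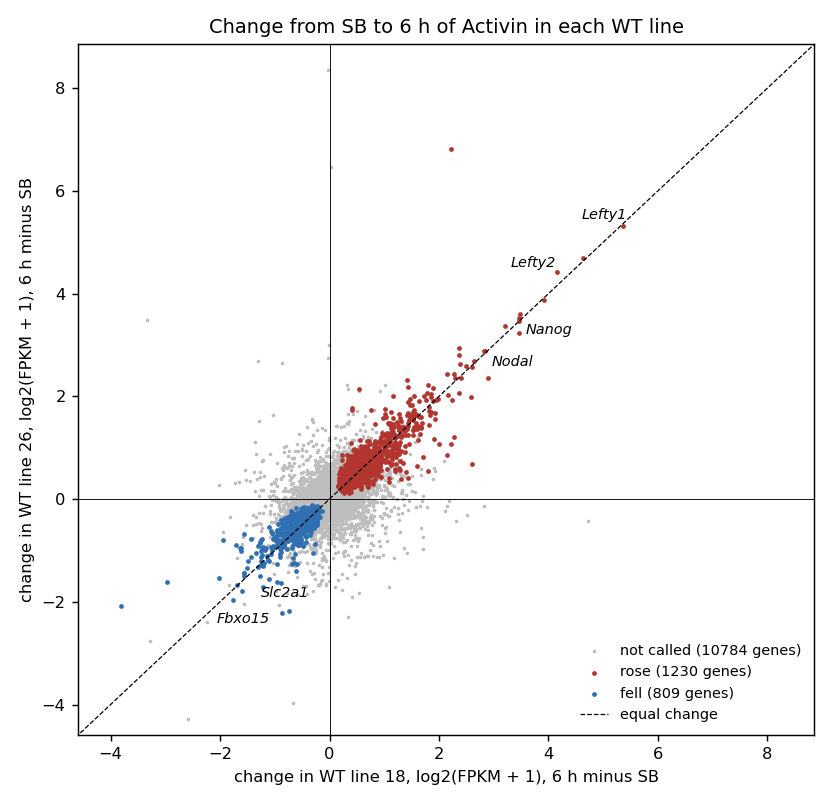
Change in log2(FPKM + 1) from SB to 6 h of Activin in WT line 18 (horizontal axis) and line 26 (vertical axis), 1 point for each of the 12823 genes tested, coloured by call, with a dashed line of equal change. All 1230 genes that rose lie above 0 and all 809 that fell lie below 0 on both axes.

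Among ligands, co-receptors and antagonists of Nodal and Activin, 6 of 16 tested members rose and 0 fell (median change 0.34; 8 up and 1 down with the cell line as a block). Lefty1, a secreted antagonist that blocks Nodal and its co-receptors, had 0.0210 and 0.0516 FPKM in SB and 40.9 and 40.8 FPKM at 6 h in lines 18 and 26 (log2 change 5.33, SE 0.165, limma adjusted p = 5.90e-07). Its neighbour Lefty2, with the same function, had 0.0283 and 0.0696 FPKM in SB and 17.3 and 21.8 FPKM at 6 h (log2 change 4.28, SE 0.187, limma adjusted p = 3.49e-06). Both genes were near 0 in SB and the groups lay far apart. The ligand gene Nodal had 7.98 and 7.36 FPKM in SB and 63.4 and 61.1 FPKM at 6 h (log2 change 2.87, SE 0.0963, limma adjusted p = 8.53e-07). Tdgf1, which encodes the Nodal co-receptor Cripto, had 13.9 and 16.6 FPKM in SB and 225 and 257 FPKM at 6 h (log2 change 3.90, SE 0.152, limma adjusted p = 1.99e-06). Reads could be split between it and its pseudogene Tdgf1-ps1, whose change was 3.54, so both values are uncertain. Nodal and Tdgf1 thus started from a clear level in SB, unlike the Lefty genes.

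Fst encodes follistatin, which binds Activin itself, and had 11.05 and 10.3 FPKM in SB and 33.1 and 32.4 FPKM at 6 h (log2 change 1.53, SE 0.154, limma adjusted p = 4.24e-04). Gdf3, a Nodal-related ligand gene, had 42.0 and 41.7 FPKM in SB and 53.2 and 53.7 FPKM at 6 h (log2 change 0.35, SE 0.0686, limma adjusted p = 0.0134), the smallest change of the 6. Gdf1, which encodes a partner ligand of Nodal, had 2.57 and 1.80 FPKM in SB and 2.38 and 2.63 FPKM at 6 h (adjusted p = 0.672), with overlapping groups. Without line 18 or without line 26 Lefty1, Lefty2, Nodal and Tdgf1 were still called. Fst had adjusted p of 0.0583 and 0.0645 without lines 18 and 26, and Gdf3 of 0.396 and 0.317.

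**Figure D2:**
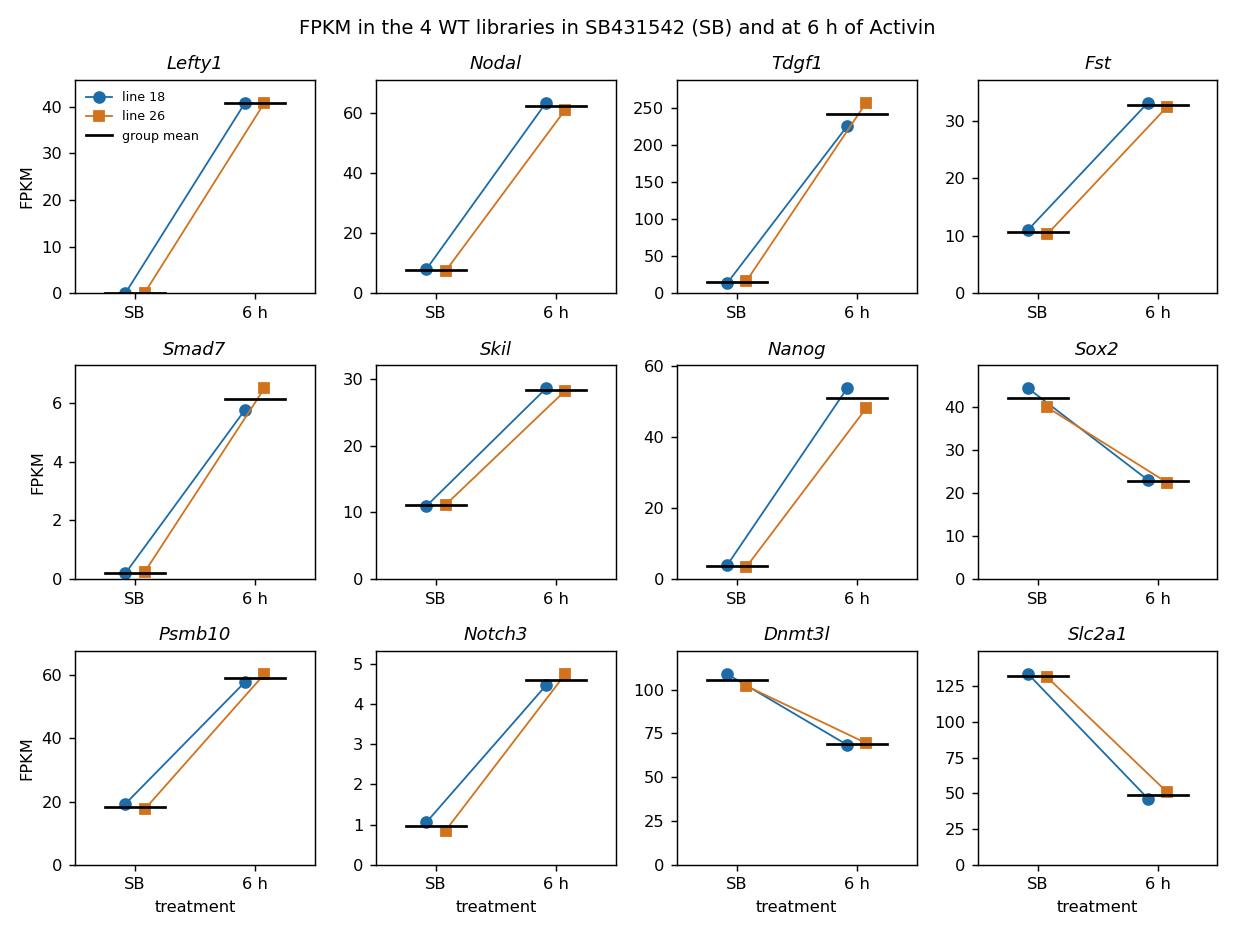
FPKM (vertical axes, from 0) of 12 genes in SB and at 6 h of Activin (horizontal axes), with a point for each WT library joined within a line and a black bar at the group mean. In each panel both 6 h libraries lie on the same side of both SB libraries, above them for all genes shown but Sox2, Dnmt3l and Slc2a1.

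Of 10 tested receptors for Activin, TGFβ and BMP, 0 were called by limma (median change -0.01). There were 4 with an unadjusted p under 0.05, and 1 up and 1 down with the cell line as a block. Acvr1b, the type I receptor gene for Activin and Nodal, had 4.62 and 4.17 FPKM in SB and 2.75 and 3.62 FPKM at 6 h (log2 change -0.38, SE 0.139, limma adjusted p = 0.0951; 0.0426 with the block). Acvr2a, a type II receptor gene, had 3.26 and 3.32 FPKM in SB and 3.43 and 3.32 FPKM at 6 h (adjusted p = 0.875). Acvr1b was lower at 6 h in both lines, and the values of Acvr2a lay close together.

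Of 11 SMAD transducers and partners 0 rose and 3 fell (median change -0.09; 2 up and 3 down with the block). Foxh1, which encodes a DNA-binding partner of SMAD2 and SMAD3, had 29.4 and 26.1 FPKM in SB and 20.8 and 22.9 FPKM at 6 h (log2 change -0.33, SE 0.0817, limma adjusted p = 0.029). Trim33, which encodes a SMAD-binding ubiquitin ligase, fell by 0.37, and Tcf3 fell by 0.35. The transducer genes Smad2 (8.76 and 8.40 FPKM in SB, 9.64 and 9.05 at 6 h), Smad3 and Smad4 had adjusted p of 0.283, 0.232 and 0.425. The 3 calls were lost without either WT line, with adjusted p of up to 0.606.

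Among 20 tested feedback inhibitors and ubiquitin regulators of SMAD signalling, 4 rose and 1 fell (median change -0.03). Smad7, the inhibitory SMAD that blocks the activated receptor, had 0.198 and 0.235 FPKM in SB and 5.77 and 6.49 FPKM at 6 h (log2 change 2.55, SE 0.0897, limma adjusted p = 1.12e-06). Skil, which encodes SnoN, a corepressor that Arkadia marks for degradation, had 10.9 and 11.1 FPKM in SB and 28.6 and 28.2 FPKM at 6 h (log2 change 1.29, SE 0.0650, limma adjusted p = 8.31e-06). Bambi, a pseudoreceptor gene, had 6.78 and 7.18 FPKM in SB and 14.2 and 12.6 FPKM at 6 h (log2 change 0.85, SE 0.0816, limma adjusted p = 3.24e-04). Smad7 was close to off in SB, while Skil and Bambi were already expressed there. Pmepa1, whose product sequesters SMAD2 and SMAD3, had 0.0911 and 0.117 FPKM in SB and 2.60 and 3.47 FPKM at 6 h at a locus that covered a share of 0.0120 of the annotated gene (log2 change 1.86, SE 0.130, limma adjusted p = 5.90e-05). The ubiquitin ligase gene Nedd4l had 4.25 and 3.77 FPKM in SB and 2.75 and 2.56 FPKM at 6 h (log2 change -0.45, SE 0.0926, limma adjusted p = 0.0154).

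Ski, the relative of Skil, had 3.57 and 3.50 FPKM in SB and 3.73 and 4.44 FPKM at 6 h (adjusted p = 0.275). Smad6, the second inhibitory SMAD, had 0.125 and 0.236 FPKM in SB and 0.357 and 0.473 FPKM at 6 h (adjusted p = 0.205). Neither was called, and Smurf1, Smurf2, Ppm1a and Tgif1 had adjusted p of 0.57, 0.408, 0.708 and 0.383. Smad7, Skil and Pmepa1 stayed called without either WT line. Bambi had adjusted p of 0.0941 and 0.0521 without lines 18 and 26, and Nedd4l of 0.402 and 0.267.

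Of 11 tested genes of mesendoderm and primitive streak, 7 rose and 0 fell, with a median change of 1.19. T, which encodes Brachyury and marks early mesoderm, had 0.384 and 0.497 FPKM in SB and 3.94 and 3.66 FPKM at 6 h (log2 change 1.74, SE 0.172, limma adjusted p = 3.84e-04). Eomes, a T-box gene of the streak, had 1.19 and 1.204 FPKM in SB and 4.00 and 4.04 FPKM at 6 h (log2 change 1.19, SE 0.0928, limma adjusted p = 1.08e-04). Gsc, a gene of the organizer, had 0.185 and 0.101 FPKM in SB and 2.42 and 1.78 FPKM at 6 h (log2 change 1.43, SE 0.124, limma adjusted p = 2.00e-04). All 3 genes were higher at 6 h in both lines and stayed at a few FPKM. The ligand gene Wnt3, needed for the streak, had 0.311 and 0.290 FPKM in SB and 2.08 and 2.67 FPKM at 6 h (log2 change 1.37, SE 0.125, limma adjusted p = 2.52e-04). Fgf8 and Fgf17 are given with the FGF genes. Evx1, Foxa2, Lhx1 and Sox17 were too weakly expressed to be tested. A gene was tested if it reached 1 FPKM in at least 2 of the 12 libraries, with or without Activin. T, Gsc and Wnt3 were under 1 FPKM in both SB libraries, and genes that stayed so low in all libraries were left out. This filter favours rises among weakly expressed genes, so the share that rose and the median partly rest on it, here and in other groups with such members. Gsc stayed called without either WT line. Without lines 18 and 26 Wnt3 had adjusted p of 0.0441 and 0.0729, T of 0.0944 and 0.0697, Eomes of 0.0503 and 0.0549, Fgf8 of 0.066 and 0.0588 and Fgf17 of 0.108 and 0.15.

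Of 8 tested FGF ligands and receptors, 5 rose and 1 fell (median change 0.79). Fgf15, a ligand gene of the epiblast and neural plate, had 1.06 and 0.677 FPKM in SB and 8.99 and 8.12 FPKM at 6 h (log2 change 2.36, SE 0.143, limma adjusted p = 2.18e-05). Fgf8, a ligand gene of the streak, had 0.225 and 0.156 FPKM in SB and 4.51 and 3.71 FPKM at 6 h (log2 change 2.10, SE 0.190, limma adjusted p = 2.42e-04). Fgf5, a ligand gene of the post-implantation epiblast, had 17.3 and 17.2 FPKM in SB and 30.7 and 33.6 FPKM at 6 h (log2 change 0.86, SE 0.0687, limma adjusted p = 1.25e-04). All 3 were higher in both lines, Fgf8 from near 0. Fgf17 and Fgf3 rose by 1.01 and 0.73. Fgf4, the main FGF ligand gene of stem cells, had 10.7 and 9.95 FPKM in SB and 9.89 and 9.89 FPKM at 6 h at a partial locus, one that covers less than 0.5 of its annotated gene (adjusted p = 0.7). The receptor gene Fgfr1 fell (7.11 and 6.39 FPKM in SB, 5.29 and 5.20 at 6 h; log2 change -0.31, adjusted p = 0.0368).

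Among 18 feedback genes of the ERK pathway, which FGF receptors activate, 3 rose and 4 fell (median change -0.10). Dusp4, an ERK phosphatase gene, had 32.8 and 30.7 FPKM in SB and 15.6 and 15.7 FPKM at 6 h (log2 change -0.97, SE 0.142, limma adjusted p = 0.00309). The Sprouty genes, which encode inhibitors of receptor tyrosine kinase signalling, were split, with Spry1 up by 0.58 and Spry4 and Spry2 down by 0.43 and 0.24. Il17rd, another such inhibitor gene, rose by 1.02. Dusp6, a second ERK phosphatase gene, had 42.4 and 41.3 FPKM in SB and 46.3 and 50.1 FPKM at 6 h (adjusted p = 0.0951). Of the FGF and ERK genes Fgf15 stayed called without either WT line. Without lines 18 and 26 Fgf5 had adjusted p of 0.0391 and 0.0609 and Il17rd of 0.0486 and 0.0778, and the largest among the rest was 0.603.

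Of 17 WNT ligands and targets 5 rose and 4 fell (2 up and 4 down after scaling to equal summed FPKM, where the median change of 0.11 turned to -0.08). Dkk1, a secreted WNT antagonist gene, had 0.159 and 0.223 FPKM in SB and 1.85 and 1.87 FPKM at 6 h (log2 change 1.26, SE 0.148, limma adjusted p = 9.89e-04). Wnt5a, a ligand gene of the non-canonical branch, had 1.76 and 1.54 FPKM in SB and 0.541 and 0.373 FPKM at 6 h (log2 change -0.86, SE 0.127, limma adjusted p = 0.00327), while its relative Wnt5b rose by 0.58. Lef1, which encodes a nuclear effector of WNT signalling, had 14.1 and 12.5 FPKM in SB and 7.87 and 8.12 FPKM at 6 h (log2 change -0.67, SE 0.158, limma adjusted p = 0.0258). Axin2, a common target, had 1.14 and 1.07 FPKM in SB and 1.502 and 1.56 FPKM at 6 h (adjusted p = 0.198).

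Of 18 BMP ligands, Id and Msx genes 4 rose and 3 fell (1 up and 3 down after scaling to equal summed FPKM, where the median of 0.12 turned to -0.06). Msx1, a homeobox target of BMP, had 2.35 and 2.06 FPKM in SB and 5.97 and 6.41 FPKM at 6 h (log2 change 1.17, SE 0.119, limma adjusted p = 4.69e-04). Id3, which encodes a helix-loop-helix inhibitor and is a BMP target too, had 74.4 and 75.5 FPKM in SB and 47.3 and 49.5 FPKM at 6 h (log2 change -0.62, SE 0.0655, limma adjusted p = 5.40e-04). These targets thus moved in opposite directions. Id1 (12.2 and 11.4 FPKM in SB, 14.5 and 10.1 at 6 h) and Id2 (11.7 and 10.6 FPKM in SB, 9.52 and 10.8 at 6 h) had overlapping groups and adjusted p of 0.889 and 0.4.

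Of 13 genes of the Notch pathway, in which a receptor is cut on contact with a ligand of the neighbouring cell, 5 rose and 1 fell (median change 0.38; 3 up and 1 down after scaling to equal summed FPKM). The receptor gene Notch3 had 1.06 and 0.849 FPKM in SB and 4.46 and 4.74 FPKM at 6 h (log2 change 1.52, SE 0.107, limma adjusted p = 5.97e-05). The target repressor genes Hes1 and Hey1 rose, Hes1 with 4.72 and 4.09 FPKM in SB and 16.9 and 18.2 FPKM at 6 h (log2 change 1.78, SE 0.0884, limma adjusted p = 7.93e-06) and Hey1 by 0.64. The ligand gene Dll1 went the other way, with 2.51 and 2.38 FPKM in SB and 0.894 and 0.845 FPKM at 6 h (log2 change -0.88, SE 0.106, limma adjusted p = 0.00112). Notch3, Hes1 and Hey1 were thus higher and Dll1 lower, while 7 of the 13 members were not called. Of the calls in the WNT, BMP and Notch groups, Hes1 and Notch3 were kept without either WT line and Wnt3 without line 18, and the others had adjusted p of up to 0.494.

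Pluripotency genes moved in both directions. Of 14 naive pluripotency genes 1 rose and 5 fell (median change -0.22), and of 15 core pluripotency genes 4 rose and 5 fell (median change -0.20). Fbxo15, an F-box gene typical of embryonic stem cells, had 59.7 and 60.7 FPKM in SB and 16.8 and 14.8 FPKM at 6 h (log2 change -1.87, SE 0.102, limma adjusted p = 1.12e-05). Klf2, which encodes a naive pluripotency factor, had 7.88 and 5.90 FPKM in SB and 2.02 and 1.56 FPKM at 6 h (log2 change -1.49, SE 0.226, limma adjusted p = 0.00385). Gbx2, another naive factor gene, had 11.5 and 10.1 FPKM in SB and 3.22 and 3.13 FPKM at 6 h (log2 change -1.50, SE 0.208, limma adjusted p = 0.00243). Each was at under 0.5 of its SB level at 6 h in both lines. Zfp42, known as Rex1, had 75.2 and 76.6 FPKM in SB and 49.4 and 45.4 FPKM at 6 h (log2 change -0.67, SE 0.0673, limma adjusted p = 4.27e-04). Esrrb had 1.91 and 1.87 FPKM in SB and 2.09 and 2.35 FPKM at 6 h (adjusted p = 0.645), and Klf4, under 1 FPKM in all 4 libraries, was not tested.

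Within the core network Nanog had 3.95 and 3.45 FPKM in SB and 53.8 and 48.2 FPKM at 6 h (log2 change 3.47, SE 0.0859, limma adjusted p = 3.24e-07). Pou5f1 (Oct4) had 601 and 567 FPKM in SB and 915 and 870.0 FPKM at 6 h (log2 change 0.61, SE 0.137, limma adjusted p = 0.0213). Sox2, the partner of Oct4, had 44.2 and 39.8 FPKM in SB and 22.9 and 22.4 FPKM at 6 h (log2 change -0.86, SE 0.0858, limma adjusted p = 4.00e-04). Nanog and Pou5f1 were thus higher and Sox2 lower in both lines. Sall4 and the RNA-binding protein gene Lin28a fell by 0.59 and 0.47. Fbxo15, Nanog and Tdgf1 stayed called without either WT line. Without lines 18 and 26 Klf2 had adjusted p of 0.192 and 0.15, Sox2 of 0.0941 and 0.0671 and Pou5f1 of 0.441 and 0.34, and the largest was 0.594.

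Of 20 formative and primed epiblast genes 2 rose (Fgf15 and Fgf5) and 6 fell (median change -0.11). Pou3f1 (Oct6) had 37.1 and 35.2 FPKM in SB and 26.97 and 28.4 FPKM at 6 h at a partial locus (log2 change -0.37, SE 0.0652, limma adjusted p = 0.00821). Otx2, which encodes a factor of the formative epiblast, had 54.6 and 52.6 FPKM in SB and 51.7 and 49.7 FPKM at 6 h (adjusted p = 0.425). Of 9 neural genes 0 rose and 3 fell (median change -0.56; 1 up and 6 down with the cell line as a block). Pax6, a neural and eye factor gene, had 3.79 and 2.87 FPKM in SB and 1.05 and 1.04 FPKM at 6 h (log2 change -1.07, SE 0.236, limma adjusted p = 0.0199). Pou3f1, Otx2 and Pax6 were each lower at 6 h than in SB in both lines. Of 10 genes of LIF signalling Pim1 rose and 2 fell, among them the receptor gene Lifr (4.79 and 4.15 FPKM in SB, 3.02 and 2.85 at 6 h; log2 change -0.47, adjusted p = 0.0352).

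Of 7 tested DNA methylation enzymes 0 rose and 4 fell (median change -0.30). Dnmt3l, which encodes the cofactor of the de novo methyltransferases, had 109 and 102 FPKM in SB and 68.5 and 69.5 FPKM at 6 h (log2 change -0.60, SE 0.0870, limma adjusted p = 0.00289). Uhrf1, which recruits the maintenance methyltransferase, had 46.4 and 43.7 FPKM in SB and 31.3 and 32.9 FPKM at 6 h (log2 change -0.47, SE 0.103, limma adjusted p = 0.019). Dnmt1, the maintenance enzyme gene, had 15.3 and 14.5 FPKM in SB and 10.9 and 10.9 FPKM at 6 h (log2 change -0.42, SE 0.0947, limma adjusted p = 0.0218). Genes of both de novo and maintenance methylation were among the 4, with Dnmt3b the smallest change (-0.30). Dnmt3a (24.1 and 23.9 FPKM in SB, 22.6 and 22.3 at 6 h) and the oxidase gene Tet1 had adjusted p of 0.235 and 0.871. In these groups Fgf15 stayed called without either WT line and Fgf5 without line 18, and the other calls had adjusted p of up to 0.568.

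Of 21 tested genes of interferon-type responses and antigen presentation, 14 rose and 0 fell, with a median change of 0.96 (12 up and 0 down after scaling to equal summed FPKM). Irf1, an interferon-regulated transcription factor gene, had 3.99 and 3.61 FPKM in SB and 45.3 and 46.9 FPKM at 6 h (log2 change 3.30, SE 0.0910, limma adjusted p = 3.67e-07). Cd40, a receptor gene of the TNF receptor family, had 1.89 and 1.42 FPKM in SB and 30.8 and 26.7 FPKM at 6 h (log2 change 3.49, SE 0.116, limma adjusted p = 8.53e-07). Both rose from a few FPKM to well over 20 in both lines.

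The 3 immunoproteasome subunit genes, whose products cut peptides for presentation, rose. Psmb8 had 0.421 and 0.287 FPKM in SB and 6.34 and 8.93 FPKM at 6 h (log2 change 2.66, SE 0.183, limma adjusted p = 5.40e-05). Psmb10 had 19.3 and 17.5 FPKM in SB and 57.8 and 60.3 FPKM at 6 h (log2 change 1.63, SE 0.114, limma adjusted p = 5.90e-05), and Psmb9 had 5.04 and 4.88 FPKM in SB and 11.1 and 10.1 FPKM at 6 h (log2 change 0.96, adjusted p = 0.0193). These genes differed in level, from under 0.5 FPKM in SB for Psmb8 to over 17 for Psmb10. Parp9, whose product works with that of Dtx3l in interferon signalling, had 1.31 and 1.16 FPKM in SB and 7.02 and 9.01 FPKM at 6 h (log2 change 2.00, SE 0.108, limma adjusted p = 1.09e-05). Ifi35 had 1.28 and 0.832 FPKM in SB and 5.63 and 6.32 FPKM at 6 h (log2 change 1.77, SE 0.124, limma adjusted p = 5.91e-05).

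Other steps of antigen presentation did not all move. Tap2, a peptide transporter gene, had 0.266 and 0.436 FPKM in SB and 3.82 and 3.60 FPKM at 6 h at a partial locus (log2 change 1.80, SE 0.251, limma adjusted p = 0.00247). Its partner gene Tap1 had 1.82 and 1.22 FPKM in SB and 1.72 and 2.02 FPKM at 6 h (adjusted p = 0.398). B2m, the light chain gene of class I molecules, had 16.1 and 13.8 FPKM in SB and 16.2 and 14.0 FPKM at 6 h (adjusted p = 0.925). Tap1 and B2m thus had overlapping groups. Stat2, a transducer gene of interferon signalling, had adjusted p = 0.71. Psmb9, Gbp2, Tap1, B2m, Stat2 and Parp14 were named after their values were seen. Summed over the group, FPKM was 388 and 543 in SB and 515 and 495 at 6 h, of which the partial locus of Parp14 held 198 and 364 in SB and 147 and 112 at 6 h (adjusted p = 0.19). Cd40, Gbp2, Ifi35, Irf1, Parp9, Psmb10 and Psmb8 stayed called without either WT line, and the other 7 had adjusted p of up to 0.481.

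Of 21 immediate early genes, which many stimuli induce within minutes, 8 rose and 0 fell (median change 0.28; 5 up and 0 down after scaling to equal summed FPKM). Junb, an AP-1 subunit gene, had 3.23 and 2.99 FPKM in SB and 11.99 and 11.2 FPKM at 6 h at a partial locus (log2 change 1.61, SE 0.128, limma adjusted p = 1.20e-04). Myc, a growth regulator gene, had 9.98 and 8.85 FPKM in SB and 16.3 and 17.7 FPKM at 6 h (log2 change 0.79, SE 0.0836, limma adjusted p = 5.40e-04). Egr1 (1.03 and 0.786 FPKM in SB, 0.986 and 1.14 at 6 h) and Fos (1.34 and 1.18 FPKM in SB, 1.14 and 1.55 at 6 h) had overlapping groups and adjusted p of 0.563 and 0.897. Of 14 YAP and matricellular targets 5 rose and 0 fell (median change 0.33), and Ctgf and Cyr61 belong to both groups. Ctgf, a matricellular protein gene, had 6.65 and 5.94 FPKM in SB and 21.0 and 21.5 FPKM at 6 h (log2 change 1.61, SE 0.124, limma adjusted p = 1.03e-04). Thbs1, another matricellular protein gene, had 1.48 and 1.21 FPKM in SB and 4.48 and 4.54 FPKM at 6 h (log2 change 1.23, SE 0.121, limma adjusted p = 3.77e-04). Amotl2, another YAP target, had 14.9 and 12.7 FPKM in SB and 14.5 and 12.9 FPKM at 6 h (adjusted p = 0.99). Ctgf, Cyr61 and Junb stayed called without line 18 (0.0358, 0.044 and 0.0474) but not without line 26 (0.0536, 0.0673 and 0.0521). The others had adjusted p of up to 0.518 without either line.

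Calls among cytoskeletal, adhesion and matrix genes went in both directions, and most members of each group were not called. Over all genes tested 9.59% rose and 6.31% fell, and with the cell line as a block 21.6% and 12.3%. Of 19 actin and contractile genes 4 rose and 4 fell. Tagln, an actin-binding protein gene of smooth muscle, had 206 and 193 FPKM in SB and 408 and 369.6 FPKM at 6 h (log2 change 0.96, SE 0.0903, limma adjusted p = 2.94e-04). Actb, the cytoplasmic actin gene, had 559.9 and 519.8 FPKM in SB and 398 and 434 FPKM at 6 h (log2 change -0.37, SE 0.0820, limma adjusted p = 0.0197), and Myl9, a myosin light chain gene, had 48.0 and 43.2 FPKM in SB and 30.0 and 31.4 FPKM at 6 h (log2 change -0.56, SE 0.0696, limma adjusted p = 0.00142). Of 20 adhesion and epithelial-mesenchymal genes 3 rose and 1 fell (6 up and 4 down with the cell line as a block). The tight junction gene Cldn7 had 10.4 and 12.3 FPKM in SB and 26.5 and 23.4 FPKM at 6 h (log2 change 1.08, SE 0.154, limma adjusted p = 0.00279). The cadherin genes Cdh1 (42.7 and 38.6 FPKM in SB, 33.3 and 37.7 at 6 h) and Cdh2 (5.002 and 4.49 FPKM in SB, 5.44 and 5.39 at 6 h) had adjusted p of 0.314 and 0.329, and Vim and Snai1 of 0.884 and 0.232.

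Of 25 collagens, laminins and integrins 2 rose and 1 fell (7 up and 1 down with the block, which called 21.6% up and 12.3% down over all genes tested). Lama5, a laminin gene of basement membranes, had 1.66 and 1.94 FPKM in SB and 4.42 and 4.36 FPKM at 6 h (log2 change 0.95, SE 0.0933, limma adjusted p = 3.78e-04). Itga6, which encodes a laminin receptor subunit, had 18.9 and 17.9 FPKM in SB and 11.02 and 11.03 FPKM at 6 h (log2 change -0.69, SE 0.0731, limma adjusted p = 5.40e-04). Lama5 was thus higher and Itga6 lower, while 22 of the 25 members were not called. Of 13 annexin and S100 genes 4 rose and 2 fell, with S100a10 at 128 and 133 FPKM in SB and 282 and 256 FPKM at 6 h (log2 change 1.04, SE 0.106, limma adjusted p = 4.69e-04) and Anxa6 at 31.6 and 32.4 FPKM in SB and 19.2 and 19.4 FPKM at 6 h (log2 change -0.70, SE 0.104, limma adjusted p = 0.00335). The median changes of the actin, adhesion, matrix and annexin groups were 0.00, 0.15, 0.14 and 0.15 and turned to -0.18, -0.03, -0.05 and -0.06 after scaling to equal summed FPKM. None of their calls was kept both without line 18 and without line 26 (adjusted p of up to 0.614).

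Of 28 tested genes of glucose transport, glycolysis and the hypoxia response, 0 rose and 13 fell, with a median change of -0.30. Slc2a1, which encodes a glucose transporter of the plasma membrane, had 133 and 131 FPKM in SB and 46.3 and 50.8 FPKM at 6 h (log2 change -1.43, SE 0.0759, limma adjusted p = 1.09e-05). Slc2a3, another transporter gene, had 26.5 and 26.0 FPKM in SB and 18.8 and 18.6 FPKM at 6 h (log2 change -0.47, SE 0.0892, limma adjusted p = 0.0115). All 3 phosphofructokinase genes, whose enzyme makes the committed step of glycolysis, fell, and Pfkl had 41.8 and 39.6 FPKM in SB and 29.7 and 31.4 FPKM at 6 h (log2 change -0.40, SE 0.0657, limma adjusted p = 0.00585). Pfkm fell by 0.51 and Pfkp, at a partial locus, by 0.50. The abundant enzyme genes Aldoa (633 and 548 FPKM in SB, 409 and 419 at 6 h; log2 change -0.51, adjusted p = 0.0103) and Pkm (579.5 and 524 FPKM in SB, 427 and 438 at 6 h; log2 change -0.35, adjusted p = 0.0163) fell too. The genes called thus included some of transport and of late steps, while 15 of the 28 members were not called. Vegfa (3.20 and 2.37 FPKM in SB, 3.10 and 2.52 at 6 h) and Hk2 (9.19 and 8.73 FPKM in SB, 8.79 and 9.31 at 6 h), targets of the hypoxia response, had adjusted p of 0.96 and 0.906, with overlapping groups. Slc2a1 stayed called without either WT line, and the other 12 calls were lost (adjusted p of up to 0.651).

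Of 20 cholesterol synthesis genes 6 rose and 0 fell (12 up and 0 down with the cell line as a block). After scaling to equal summed FPKM the counts were 1 up and 0 down, and their median change of 0.23 came to 0.01. Msmo1, a sterol oxidase gene, had 242 and 238 FPKM in SB and 397 and 376 FPKM at 6 h (log2 change 0.68, SE 0.0828, limma adjusted p = 0.00118). Cyp51, a sterol demethylase gene, had 84.1 and 79.2 FPKM in SB and 123 and 117 FPKM at 6 h (log2 change 0.55, SE 0.0759, limma adjusted p = 0.00233). Hmgcs1, which acts early in the pathway, had 345 and 327 FPKM in SB and 413 and 396 FPKM at 6 h (log2 change 0.27, SE 0.0770, limma adjusted p = 0.0486). All 3 were higher at 6 h than in SB in both lines. Of 15 fatty acid synthesis genes the desaturase gene Scd1 was the only one called (29.0 and 27.3 FPKM in SB, 19.4 and 20.8 at 6 h; log2 change -0.46, adjusted p = 0.00844).

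Of 22 genes that respond to amino acid shortage or to unfolded proteins 4 rose and 4 fell (8 up and 7 down with the block). The 4 that rose encode chaperones and other proteins of the endoplasmic reticulum. Hspa5, the central chaperone gene of that compartment, had 525 and 512 FPKM in SB and 712 and 677 FPKM at 6 h (log2 change 0.42, SE 0.0869, limma adjusted p = 0.0159). Sdf2l1 had 71.1 and 65.7 FPKM in SB and 106 and 100.4 FPKM at 6 h (log2 change 0.59, SE 0.0822, limma adjusted p = 0.00252), and Dnajb9 and Creld2 rose by 0.54 and 0.41. The 4 that fell belong to the amino acid response. Chac1, which encodes a glutathione-degrading enzyme, had 11.6 and 10.5 FPKM in SB and 7.32 and 7.22 FPKM at 6 h (log2 change -0.54, SE 0.0758, limma adjusted p = 0.00258), and Sesn2, Slc7a5 and Shmt2 fell by 0.66, 0.44 and 0.41. Atf4, which encodes the factor that drives this response, had 166 and 155 FPKM in SB and 158 and 150.2 FPKM at 6 h (adjusted p = 0.76). None of the calls in these 3 groups was kept both without line 18 and without line 26 (adjusted p of up to 0.542).

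Some genes of proliferation fell, by small amounts. Of 25 DNA replication genes 1 rose and 9 fell (median change -0.20; 7 up and 12 down with the cell line as a block), of 28 mitosis genes 0 rose and 9 fell (median change -0.11), and of 21 cell cycle regulators 3 rose and 5 fell. Mcm6, a subunit gene of the replicative helicase, had 65.5 and 66.3 FPKM in SB and 46.2 and 50.9 FPKM at 6 h (log2 change -0.44, SE 0.0745, limma adjusted p = 0.00741). Plk1, a mitotic kinase gene, had 33.8 and 31.2 FPKM in SB and 23.3 and 25.4 FPKM at 6 h (log2 change -0.40, SE 0.0788, limma adjusted p = 0.0126). Mki67 (3.57 and 3.67 FPKM in SB, 3.29 and 3.59 at 6 h) had adjusted p = 0.695. Mycn, the relative of Myc that is abundant in stem cells, had 39.5 and 36.4 FPKM in SB and 27.8 and 28.9 FPKM at 6 h (log2 change -0.41, SE 0.0831, limma adjusted p = 0.0151), so the pair moved in opposite directions. Among cyclin genes Ccnd1 fell (22.1 and 20.1 FPKM in SB, 15.6 and 17.7 at 6 h; log2 change -0.32, adjusted p = 0.0402) and Ccne2 rose (21.9 and 25.0 FPKM in SB, 37.5 and 35.7 at 6 h; log2 change 0.62, adjusted p = 0.00894). Cdkn1a, which encodes the inhibitor p21, had 12.8 and 9.41 FPKM in SB and 19.3 and 18.6 FPKM at 6 h (log2 change 0.74, SE 0.182, limma adjusted p = 0.0299). Of 17 p53 targets Cdkn1a was the only riser, with 3 that fell. With the block 3 of them were up and 4 down, against 21.6% and 12.3% of all genes tested.

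Of 25 chromatin regulators 0 rose and 5 fell (median change -0.15; 3 up and 7 down with the block). Jarid2, which encodes a Polycomb partner, had 17.7 and 16.9 FPKM in SB and 10.4 and 11.2 FPKM at 6 h (log2 change -0.63, SE 0.0654, limma adjusted p = 4.92e-04). Of 14 retinoic acid genes 0 rose, 3 fell and 11 were not called (median change -0.02), and 7 had a positive change. Crabp2, a retinoic acid binding protein gene, had 69.8 and 67.6 FPKM in SB and 33.8 and 38.9 FPKM at 6 h (log2 change -0.90, SE 0.0780, limma adjusted p = 1.98e-04). The receptor gene Rarg had 21.3 and 17.9 FPKM in SB and 9.64 and 11.2 FPKM at 6 h (log2 change -0.85, SE 0.105, limma adjusted p = 0.00135), and the synthesis gene Aldh1a2 fell by 1.45 at a partial locus. The 3 retinoic acid genes that fell were thus a binding protein gene, a receptor gene and a synthesis gene. Of 22 imprinted genes 0 were called by limma, with 2 at an unadjusted p under 0.05. With the block 2 of them were up and 7 down, against 21.6% and 12.3% of all genes tested. H19 had 40.1 and 34.5 FPKM in SB and 26.1 and 29.1 FPKM at 6 h (adjusted p = 0.167; 0.0105 with the block). Crabp2 and Rarg were called without line 26 (0.0341 and 0.047) but not without line 18 (0.0649 and 0.158). The other calls named among these genes were lost without either line (adjusted p of up to 0.636).

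Abundant genes of translation and respiration had small positive changes whose calls depended on the fit. Over all genes tested 9.59% rose and 6.31% fell, and with the cell line as a block 21.6% and 12.3%. Of 76 cytosolic ribosomal protein genes 7 rose and 0 fell, a share of risers near that of all genes, and 71 had a positive change (median 0.36). With the cell line as a block there were 63 up and 1 down, and after scaling to equal summed FPKM there were 16 up and 0 down and the median was 0.14. Their share of summed FPKM was 16.0% and 15.3% in SB and 18.0% and 17.5% at 6 h in lines 18 and 26. Rpl22 had 452 and 459 FPKM in SB and 658 and 653 FPKM at 6 h (log2 change 0.52, SE 0.142, limma adjusted p = 0.04). Of 73 mitochondrial ribosomal protein genes 12 rose and 1 fell (median 0.28; 52 up and 1 down with the block, 7 up and 2 down after scaling to equal summed FPKM). Of 71 nuclear genes of oxidative phosphorylation 8 rose and 0 fell (median 0.32; 48 up and 3 down with the block, 5 up and 6 down after that scaling, and 6 up and 8 down after quantile normalization). Cox7a2, a cytochrome oxidase subunit gene, had 412 and 434 FPKM in SB and 633 and 634 FPKM at 6 h (log2 change 0.58, SE 0.165, limma adjusted p = 0.0451). Of 33 subunits of the constitutive proteasome Psmd7 rose by 0.23, a change that turned to -0.02 after quantile normalization, and Psmd3 fell by 0.31 (22 up and 2 down with the block). After quantile normalization the medians of the cytosolic ribosomal, mitochondrial ribosomal, oxidative phosphorylation and proteasome genes were 0.06, 0.12, 0.13 and 0.002. No call of these groups was kept both without line 18 and without line 26 (adjusted p of up to 0.636).

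**Figure D3:**
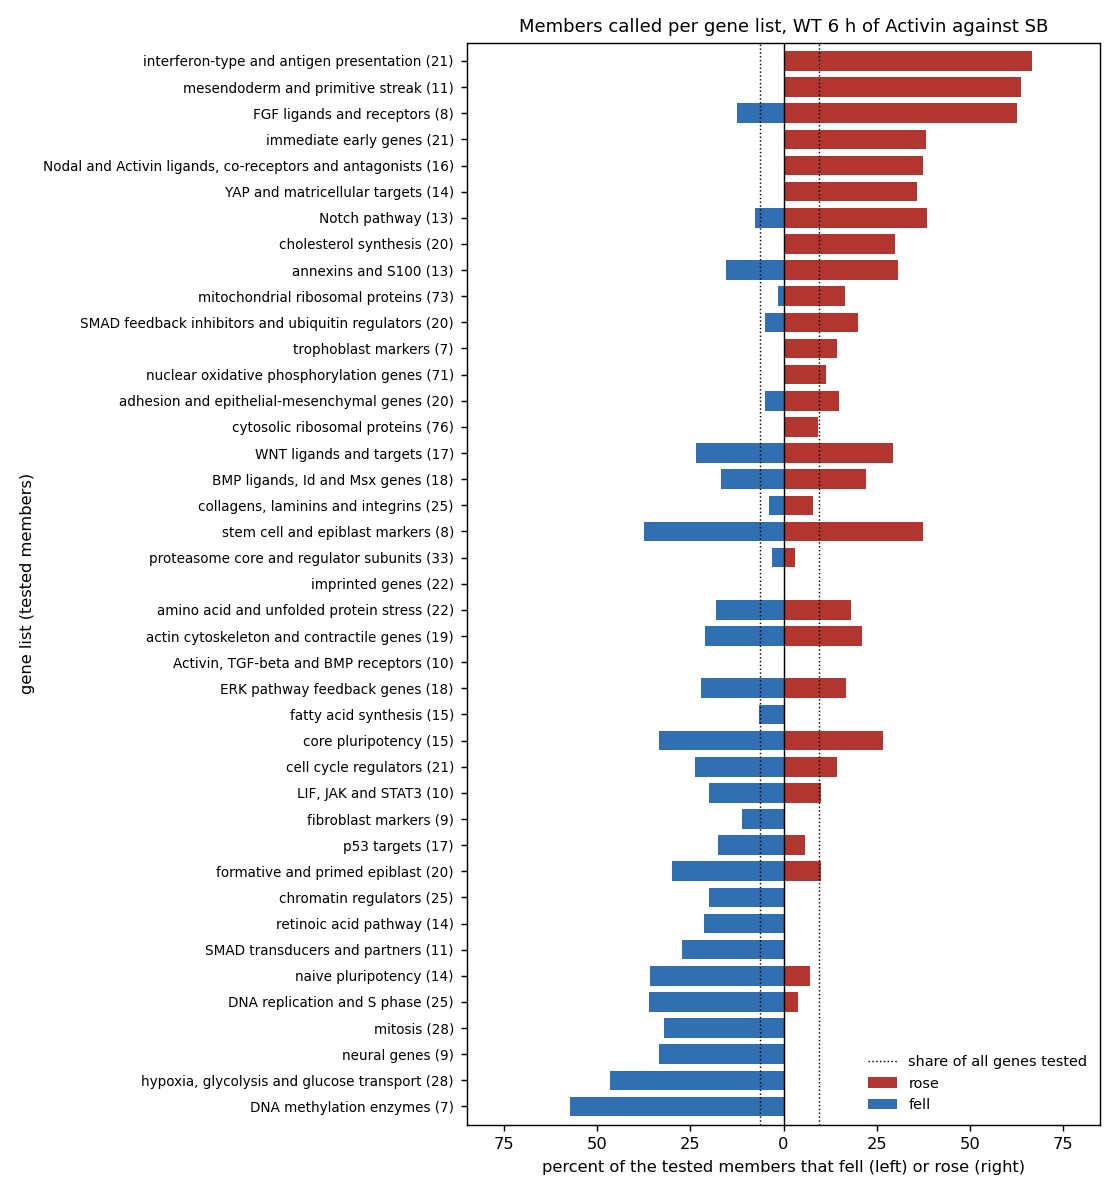
Percent of the tested members that fell (blue, left) or rose (red, right) at 6 h of Activin against SB in WT lines, for each gene list with at least 7 tested members (vertical axis, number tested in parentheses); dotted lines mark the 6.31% and 9.59% of all genes tested. Interferon-type genes had 14 of 21 members up and DNA methylation enzymes 4 of 7 down.

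The largest rises also included secreted peptide and matrix genes outside these groups. Trh, which encodes thyrotropin-releasing hormone, had 13.1 and 10.98 FPKM in SB and 97.8 and 87.0 FPKM at 6 h (log2 change 2.85, SE 0.139, limma adjusted p = 7.38e-06). Gal, which encodes the neuropeptide galanin, had 0.301 and 0.185 FPKM in SB and 5.70 and 7.29 FPKM at 6 h (log2 change 2.58, SE 0.173, limma adjusted p = 4.50e-05). Ucma, a cartilage matrix protein gene, had 0.292 and 0.316 FPKM in SB and 13.3 and 11.4 FPKM at 6 h (log2 change 3.35, SE 0.185, limma adjusted p = 1.16e-05). Gal and Ucma were close to off in SB, Trh was not, and all 3 stayed called without either WT line.

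Among the largest falls, Enpp2, which encodes autotaxin, the enzyme that makes lysophosphatidic acid, had 19.8 and 19.1 FPKM in SB and 5.39 and 5.33 FPKM at 6 h (log2 change -1.68, SE 0.0706, limma adjusted p = 3.12e-06). Ror1, a receptor gene for WNT5A, had 4.21 and 4.59 FPKM in SB and 1.11 and 1.22 FPKM at 6 h (log2 change -1.32, SE 0.0899, limma adjusted p = 5.18e-05). The metallothionein gene Mt2 had 298 and 282 FPKM in SB and 110.2 and 129 FPKM at 6 h (log2 change -1.28, SE 0.0927, limma adjusted p = 7.22e-05). Slc28a1, a nucleoside transporter gene, fell by 1.26. These 4 stayed called without either WT line, and Ror1 fell beside its ligand gene Wnt5a. Btbd17 had 33.8 and 32.1 FPKM in SB and 10.8 and 10.7 FPKM at 6 h (log2 change -1.53, SE 0.129, limma adjusted p = 1.80e-04), with adjusted p of 0.0597 and 0.0582 without lines 18 and 26. The reductase gene Akr1b8 had 14.6 and 12.8 FPKM in SB and 4.54 and 4.98 FPKM at 6 h (log2 change -1.35, SE 0.203, limma adjusted p = 0.00368; 0.268 and 0.155 without lines 18 and 26). The cytokine gene Il17b had 6.81 and 4.87 FPKM in SB and 1.39 and 2.18 FPKM at 6 h (log2 change -1.30, SE 0.182, limma adjusted p = 0.00255; 0.182 and 0.0379 without lines 18 and 26). Falls at low FPKM were uneven between lines. Rab20 had 1.49 and 3.66 FPKM in SB and 0.366 and 0 FPKM at 6 h and Id4 had 2.73 and 3.56 FPKM in SB and 1.24 and 0.000413 FPKM at 6 h, with falls of 1.54 and 1.46 that were lost without either line (0.0867 and 0.354 and 0.148 and 0.466). Fam169b and Pdzk1 fell by 1.37 and 1.29 and were lost as well (0.548 and 0.152 and 0.102 and 0.253).

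At partial loci a value describes only the stretch covered. The largest rises there included Gm20496 (14.3 and 0 FPKM in SB, 70.1 and 111 at 6 h), where the SB libraries differed, and Clca4a (1.28 and 2.15 FPKM in SB, 15.9 and 15.1 at 6 h; 0.0504 and 0.0324 without lines 18 and 26). Zbp1, which encodes a sensor of nucleic acids, had 0.112 and 0.165 FPKM in SB and 4.84 and 6.19 FPKM at 6 h (log2 change 2.51, SE 0.134, limma adjusted p = 1.09e-05), and Bcar3 had 2.75 and 2.56 FPKM in SB and 15.7 and 18.3 FPKM at 6 h (log2 change 2.29, SE 0.0945, limma adjusted p = 2.89e-06). The largest falls were Ctrb1 (13.1 and 3.22 FPKM in SB, 0 and 0 at 6 h; log2 change -2.95, adjusted p = 0.0419) and Adgrl3 (13.4 and 8.08 FPKM in SB, 0.845 and 1.98 at 6 h; log2 change -2.29, adjusted p = 0.0184). Both had uneven SB levels and were lost without either WT line (0.478 and 0.176, and 0.287 and 0.0694). At the threshold, the called gene Jade1 had 33.8 and 33.5 FPKM in SB and 25.8 and 25.0 FPKM at 6 h (-0.39) and Scoc 32.0 and 34.7 FPKM in SB and 38.1 and 40.4 FPKM at 6 h (0.23). Just outside it lay Hist1h1a (2.61 and 2.79 FPKM in SB, 3.89 and 3.57 at 6 h; 0.35) and Zfp27 (2.96 and 2.70 FPKM in SB, 1.94 and 2.23 at 6 h; -0.31).

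The 6 h libraries were also compared with the 3 h libraries of the same WT lines, which asks how the response differed between these times. Follistatin, chaperone and some interferon-type genes were higher at 6 h, while several genes of the Nodal loop and streak were lower. There were 325 genes called (2.53% of those tested), 157 higher (1.22%) and 168 lower (1.31%) at 6 h than at 3 h. With the cell line as a block there were 852, and after scaling to equal summed FPKM 134. Without line 18 or without line 26 there were 0 called by limma, with 900 and 771 genes at an unadjusted p under 0.05, so every call between the times below was lost without either line. The comparisons of each time with SB share their control libraries, so values are given side by side.

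Fst had 11.05 and 10.3 FPKM in SB, 8.75 and 6.78 at 3 h and 33.1 and 32.4 at 6 h in lines 18 and 26 (6 h minus 3 h 1.96, SE 0.154, limma adjusted p = 0.00221). It was under its SB level in both lines at 3 h and above it at 6 h. Avpr1a, a vasopressin receptor gene at a partial locus, had 1.28 and 1.25 FPKM in SB, 0.248 and 0.466 at 3 h and 6.30 and 4.99 at 6 h (6 h minus 3 h 2.29, SE 0.194, limma adjusted p = 0.00221), the same order. Of the interferon-type genes, Ifi35 had 1.28 and 0.832 FPKM in SB, 2.39 and 2.29 at 3 h and 5.63 and 6.32 at 6 h (6 h minus 3 h 1.06, SE 0.124, limma adjusted p = 0.00541). Parp9, Psmb8 and Gbp2 were higher at 6 h as well, by 1.02, 0.86 and 0.78. Irf1 had 3.99 and 3.61 FPKM in SB, 76.9 and 85.3 at 3 h and 45.3 and 46.9 at 6 h (6 h minus 3 h -0.80, SE 0.0910, limma adjusted p = 0.00483), and Cd40 had 1.89 and 1.42 FPKM in SB, 72.1 and 71.5 at 3 h and 30.8 and 26.7 at 6 h (6 h minus 3 h -1.29, SE 0.116, limma adjusted p = 0.00242). Irf1 and Cd40 were thus highest at 3 h, and the other 4 at 6 h.

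Other genes were highest at 3 h. Id1 had 12.2 and 11.4 FPKM in SB, 41.0 and 46.4 at 3 h and 14.5 and 10.1 at 6 h (6 h minus 3 h -1.76, SE 0.173, limma adjusted p = 0.00319). Btg2, an antiproliferative gene, had 9.02 and 7.75 FPKM in SB, 20.7 and 19.7 at 3 h and 9.89 and 9.02 at 6 h (6 h minus 3 h -1.02, SE 0.104, limma adjusted p = 0.00319). Both were close to their SB values at 6 h. The partial loci of Prdm1 (1.95 and 1.02 FPKM in SB, 5.89 and 10.9 at 3 h and 0.777 and 1.80 at 6 h; -2.02, adjusted p = 0.0221) and Itpkb (0.955 and 0.775 FPKM in SB, 8.06 and 9.58 at 3 h and 2.11 and 1.71 at 6 h; -1.75, adjusted p = 0.00891) were also highest at 3 h. Some genes of the Nodal loop and streak stayed above SB but were lower at 6 h than at 3 h. Lefty1 had 93.8 and 111 FPKM at 3 h and 40.9 and 40.8 at 6 h (6 h minus 3 h -1.30, SE 0.165, limma adjusted p = 0.00772). Nanog had 80.0 and 85.1 and 53.8 and 48.2 FPKM (-0.69, adjusted p = 0.0075), and Gsc had 7.48 and 7.44 and 2.42 and 1.78 FPKM (-1.46, adjusted p = 0.00221). Of the 11 mesendoderm genes 5 were lower and 0 higher at 6 h than at 3 h. Nodal, with 57.5 and 56.6 FPKM at 3 h and 63.4 and 61.1 at 6 h (6 h minus 3 h 0.12, SE 0.0963, limma adjusted p = 0.59), and Tdgf1 (6 h minus 3 h -0.27, SE 0.152, limma adjusted p = 0.437) were not called between the times.

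Of the 22 stress genes 7 were higher and 1 lower at 6 h than at 3 h, and all 7 encode chaperones or other proteins of the endoplasmic reticulum. Sdf2l1 had 71.1 and 65.7 FPKM in SB, 65.4 and 57.6 at 3 h and 106 and 100.4 at 6 h (6 h minus 3 h 0.74, SE 0.0822, limma adjusted p = 0.00429). Hspa5 had 525 and 512 FPKM in SB, 521 and 463 at 3 h and 712 and 677 at 6 h (6 h minus 3 h 0.50, SE 0.0869, limma adjusted p = 0.0252). Neither was above its SB level at 3 h in either line. The others were Creld2 (0.65), Pdia4 (0.61), Hsp90b1 (0.52), Calr (0.43) and Herpud1 (0.41), the last 4 named after their values were seen. The gene that was lower was Sesn2 (-0.38). Among genes below their SB level, Fbxo15 had 43.1 and 43.8 FPKM at 3 h and 16.8 and 14.8 at 6 h (6 h minus 3 h -1.41, SE 0.102, limma adjusted p = 0.00221). Mt2 (201 and 217 and 110.2 and 129 FPKM; -0.80, adjusted p = 0.00502) and Crabp2 (63.6 and 65.2 and 33.8 and 38.9 FPKM; -0.81, adjusted p = 0.00319) were lower at 6 h too. Slc2a1 had 44.7 and 48.0 FPKM at 3 h and 46.3 and 50.8 at 6 h (6 h minus 3 h 0.07, SE 0.0759, limma adjusted p = 0.734), so in both lines it was no further from SB at 6 h than at 3 h.

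**Figure D4:**
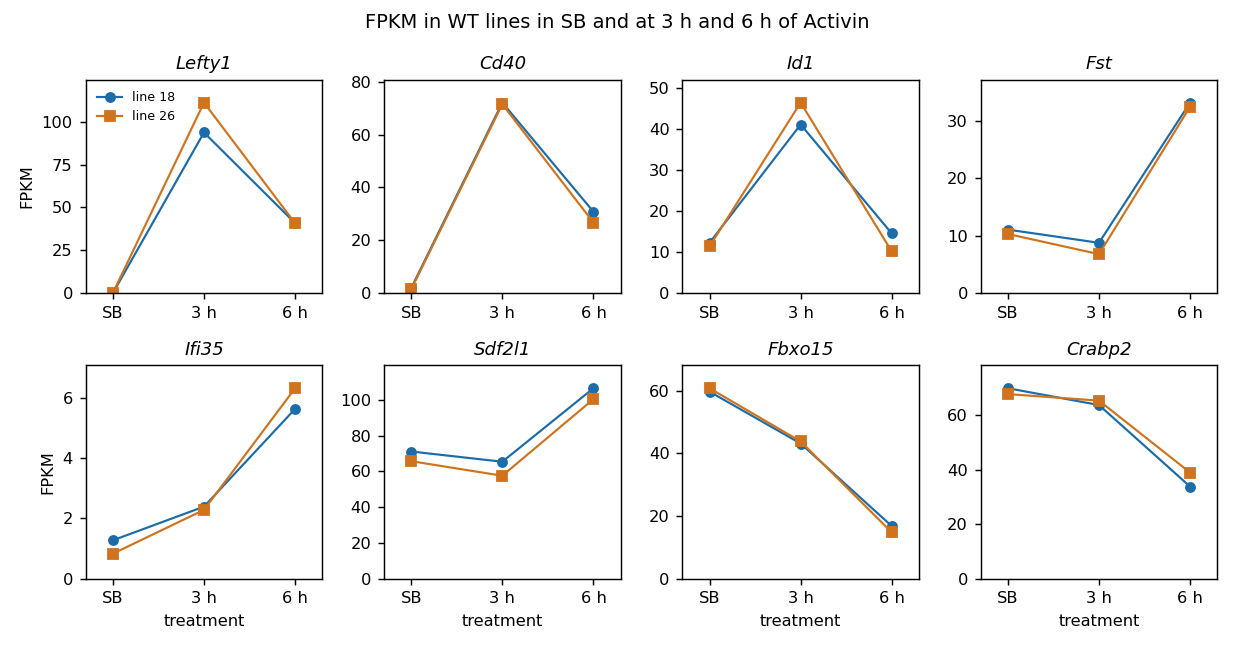
FPKM (vertical axes, from 0) of 8 genes in SB and at 3 h and 6 h of Activin (horizontal axes), a line for each WT cell line. Lefty1, Cd40 and Id1 are highest at 3 h, Fst, Ifi35 and Sdf2l1 are highest at 6 h, and Fbxo15 and Crabp2 are lowest at 6 h, in both lines.

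The same comparison in the null lines shares no library with the WT one, and it asked how far the WT response at 6 h was also seen without Arkadia. Calls in both genotypes came from the same fit, which used the same spread of a gene for both. A gene with a small spread was thus favoured for a call in both, and the counts of shared calls are not independent of each other. In null lines 1718 genes were called (13.4% of those tested), 1009 up (7.87%) and 709 down (5.53%). Of the 1230 WT risers, 98.2% had a positive change in null lines, against 50.8% of all genes tested, and 775 were called as risers there (63.0% of the WT list and 76.8% of the null list). Of the 809 genes that fell in WT lines, 98.9% had a negative change in null lines, against 49.2% of all genes, and 487 were called (60.2% and 68.7%). The genes were chosen on their WT change, and their median change was 0.53 in WT and 0.44 in null lines for risers and -0.42 and -0.36 for those that fell. The difference between genotypes in the change itself was called for 0 genes, with a smallest adjusted p of 0.443 (0.112 with the cell line as a block), and 382 genes had an unadjusted p under 0.05.

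The 5 smallest unadjusted p for that difference belonged to Gal, Skil, Gm16192, Bhlhe22 and Zbp1. Gal had 0.487 and 0.190 FPKM in SB and 1.37 and 0.949 at 6 h in null lines 25 and 39 (null minus WT change -1.89, SE 0.244, unadjusted p = 3.45e-05, limma adjusted p = 0.443). Skil had 8.81 and 7.97 FPKM in SB and 14.1 and 14.0 at 6 h (null minus WT -0.61, SE 0.0920, unadjusted p = 1.17e-04, limma adjusted p = 0.505). Both had a smaller change in null lines, a difference that did not pass the adjustment. At the partial locus of Zbp1 null lines had 0.0333 and 0.0895 FPKM in SB and 1.75 and 1.71 at 6 h (null minus WT -1.15, limma adjusted p = 0.577). For the genes of the Nodal loop, Lefty1 had 35.4 and 27.8 FPKM at 6 h in null lines, Nodal 42.7 and 51.9, Nanog 44.7 and 49.5 and Smad7 4.83 and 4.35. Their differences in change, null minus WT, were -0.48 (SE 0.233), -0.48 (SE 0.136), -0.51 (SE 0.122) and -0.51 (SE 0.127). Fst, Fbxo15 and Slc2a1 had differences of 0.04 (SE 0.218), 0.11 (SE 0.144) and 0.09 (SE 0.107), and Irf1 of -0.36 (SE 0.129).

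**Figure D5:**
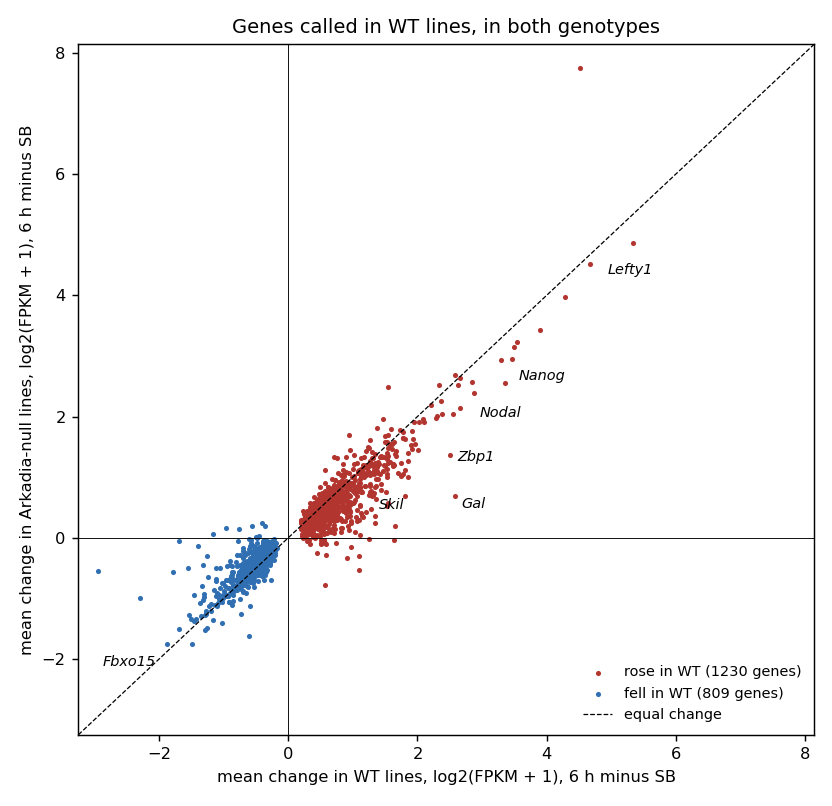
Mean change in log2(FPKM + 1) from SB to 6 h of Activin in WT lines (horizontal axis) and in Arkadia-null lines (vertical axis) for the 2039 genes called in WT lines, with a dashed line of equal change. Of the genes that rose in WT lines 98.2% lie above 0 on the vertical axis, and of those that fell 98.9% lie below 0.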

How the data were processed

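Values were FPKM per locus, which the authors deposited in a single table of 12 libraries; the submitters' processing notes name genome build mm10, and no source used here names the aligner, the quantifier or the use of strand (they are not given). Per the labels' protocols, poly(A) RNA was primed with random hexamers and sequenced as single reads of 50 bases. Of 17446 loci, 2666 without a name (3.41% to 3.86% of summed FPKM) and 27 with a status other than OK were left out, and the locus with the highest mean FPKM was kept for each of 13508 names. Of these, 12870 matched GENCODE M21, and 2743 loci covered less than 0.5 of their gene (partial loci). Names that join several symbols (226) and genes that overlap or have near-identical copies are uncertain.

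With FPKM and no counts, log2(FPKM + 1) was modelled in limma 3.58.1 (R 4.3.3) by 6 group means and a mean-variance trend over the 12823 genes at 1 FPKM or more in at least 2 libraries, with Benjamini-Hochberg adjustment over all of them and a threshold of 0.05; the script was tested on simulated data. Depth limits the precision of low values, and no interval for counting error could be given. Libraries of 1 cell line are pairs by origin. Deviations from the group means correlated within lines at 0.0165 to 0.0537 in WT and at 0.246 to 0.349 in null lines, and the block on cell line is an alternative. Genes named were the 15 largest rises and falls called with the same sign in both lines (5 each for partial loci), fixed members of each group and up to 4 further called ones, the 8 largest differences in each direction between 6 h and 3 h, the 5 smallest p for the genotype difference and the 5 genes on each side of the threshold. Only some of these are printed, and exceptions are stated. Members, groups and rules were chosen with earlier results of these data known.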

Additional observations from a re-analysis of the deposited data

How the results depend on the processing

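Counts of calls at 6 h against SB in WT lines depended on how the spread was estimated. With the replicate block on cell line there were 4342 calls (2770 up, 1572 down), and 1227 of the 1230 risers and all 809 genes that fell were among them. With the 4 WT libraries alone there were 3119 (2165 up), and 2150 up with the block as well. Leaving out 1 line at a time gave 89 to 3897 calls, 75 to 2531 up and 13 to 1366 down, the lowest without a WT line and the highest without a null line. Scaling to equal summed FPKM gave 577 up, and quantile normalization 1328 down. Between 6 h and 3 h there were 852 calls with the block, 134 after scaling to equal summed FPKM and 0 to 456 with 1 line left out. The genotype difference gave 0 calls in every fit run. Of the called genes chosen by the naming rule, Psmd7 alone turned its sign, to -0.0225 under quantile normalization; 203 of the 204 stayed called with the block, 174 after scaling to equal summed FPKM, 42 without line 18 and 39 without line 26. The cause of these shifts was not tested. Other pseudocounts and filters moved the main counts by less than 1.5 times. With 2 lines a genotype, and a depth known only in relative terms, small changes of weakly expressed genes were not detectable.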
